A study of Rattus norvegicus with 30 samples.

Results

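The SOCS family (suppressors of cytokine signaling) was followed through rat lung in severe acute pancreatitis with acute lung injury (SAP-ALI). The members were the genes with the symbols Cish and Socs1 to Socs7 in the deposited gene tables. All 8 were found among 22914 genes, all 8 had FPKM values (read levels normalised for transcript length and library size), and all 8 were among the 15934 genes with enough reads to be tested. The files place Socs1, Socs3 and Socs7 on chromosome 10, Cish on 8, Socs2 on 7, Socs4 on 15, Socs5 on 6 and Socs6 on 18.

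The study sequenced lung RNA from 30 male Sprague Dawley rats aged 8 weeks, with 3 rats in each of 10 groups and 1 library per rat. Lungs were taken 6 or 24 h after surgery. In the Sham groups the pancreas was only rotated slightly, and in the Con groups saline went into the biliopancreatic duct. Pancreatitis was induced in SAP, DEX and Emo rats by 5.0% sodium taurocholate, a bile salt, injected into the duct. DEX-6h and DEX-24h rats were also given intravenous dexamethasone, a synthetic glucocorticoid, at 10 mg/kg. Emo-6h and Emo-24h rats were given emodin, a plant anthraquinone, into the stomach. The labels give the emodin dose as 40 mg/kg in the treatment protocol and as 10 mg/kg in the sample descriptions. Each drug was given at 2 h and 12 h, so the 6 h rats had received 1 dose. Rats without dexamethasone received intravenous saline, and rats without emodin received the carboxymethylcellulose vehicle by mouth.

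Cytokine receptors of the JAK-STAT type carry JAK kinases, which phosphorylate STAT transcription factors when a ligand binds. SOCS genes are themselves STAT targets, and their proteins close a negative feedback loop: they bind receptors or JAKs through an SH2 domain and recruit a ubiquitin ligase through the SOCS box. Socs3 is known as the main brake on signaling through gp130, the receptor chain shared by IL-6 and its relatives, while Socs1 restrains interferon signaling and Cish and Socs2 restrain STAT5 signaling by growth hormone and related cytokines. Socs4 to Socs7 are less tied to STAT induction, and some of them act on growth factor receptors and insulin signaling.

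STAT dimers bind the palindrome TTCNNNGAA, and interferon-activated factors bind elements with the core GAAA repeated after 2 bases of any kind, here called GAS-type and ISRE-like. Both were searched on both strands, overlaps allowed, in the RefSeq promoter windows of 300 bases (GRCr8), which were given for Cish, Socs1, Socs3, Socs4 and Socs6. The 250 bases before the start site are shown for the 2 genes with a match, with matches in capitals. They lie at chr8:116850719-116850968 (plus strand) for Cish and at chr10:5389324-5389573 (plus strand) for Socs1.
Cish: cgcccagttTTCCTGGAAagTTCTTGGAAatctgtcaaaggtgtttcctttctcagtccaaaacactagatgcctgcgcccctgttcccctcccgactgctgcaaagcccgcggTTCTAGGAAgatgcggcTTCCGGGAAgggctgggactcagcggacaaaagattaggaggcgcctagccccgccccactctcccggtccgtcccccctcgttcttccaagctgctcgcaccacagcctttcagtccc
Socs1: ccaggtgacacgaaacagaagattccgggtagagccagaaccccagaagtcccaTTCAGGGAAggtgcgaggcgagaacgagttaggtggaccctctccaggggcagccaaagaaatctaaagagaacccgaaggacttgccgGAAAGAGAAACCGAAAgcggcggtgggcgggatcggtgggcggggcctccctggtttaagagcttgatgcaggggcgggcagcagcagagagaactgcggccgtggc
Cish had 4 GAS-type matches, which begin 241, 230, 136 and 119 bases before the start site, a number reached by 2 of 33469 rat promoter windows, while 8.87% of windows had at least 1. Socs1 had 1 GAS-type match, 196 bases before the start, and 2 overlapping ISRE-like matches at 107 and 101 bases, where 3.92% of windows had at least 1 and 0.266% at least 2. The windows of Socs3, Socs4 and Socs6 held neither set of letters. The start sites of the Socs3 and Socs6 windows lie inside the RefSeq gene, 1207 and 6128 bases from its 5′ end, so these windows do not cover the sequence upstream of the first exon.

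Reads counted on genes ranged from 16813949 to 34692306 per library, and each member was counted with at least 42 reads in every library, so depth did not set any member to 0. In the paper's mapping summary the share of uniquely mapped reads was lower in every SAP, DEX and Emo library than in every Sham and Con library. Comparisons of SAP, DEX or Emo with Sham or Con therefore coincide with this library difference, whose part in the SOCS changes was not tested. The summed FPKM of 7 alveolar type 2 cell markers lay between 24700 and 47430 in every library, so the tissue carried the label's lung identity. SAP-24h rat 1 stood apart for the family: it had the highest Socs2 and Socs3 values of all 30 libraries and the highest Socs1 and Cish values of its group. SOCS calls that changed without it are given both ways. Whether a change reflects more RNA per cell or more cells of a type cannot be told apart in whole lung.

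By mean FPKM over all 30 libraries Socs3 was the most abundant member, and it was also the most variable. Its level had a mean of 59.8 FPKM and ranged from 9.79 to 286.63, a 29.3-fold span. The next highest Socs3 value after SAP-24h rat 1 was 126.46 FPKM. Socs2 followed with a mean of 31.0 FPKM and a 5.84-fold span, and Socs1 with 11.6 FPKM and an 11.5-fold span. The top Socs1 value was 45.12 FPKM, in Emo-6h rat 3, and the next was 24.99. In Sham-24h and Con-24h Socs2 had a larger mean share of the summed family FPKM than Socs3 (32.4% against 27.2% and 31.1% against 25.8%). The same held in DEX-24h (47.5% against 20.1%) and DEX-6h (37.0% against 35.7%). Socs5 (9.61 FPKM) and Cish (6.36 FPKM) were intermediate in level, and Socs6, Socs7 and Socs4 were low at 3.58, 1.47 and 1.39 FPKM. The spans of Cish, Socs4, Socs5, Socs6 and Socs7 lay between 1.71-fold and 2.92-fold, so the movement of the family came mostly from Socs1, Socs2 and Socs3.

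**Figure D1:**
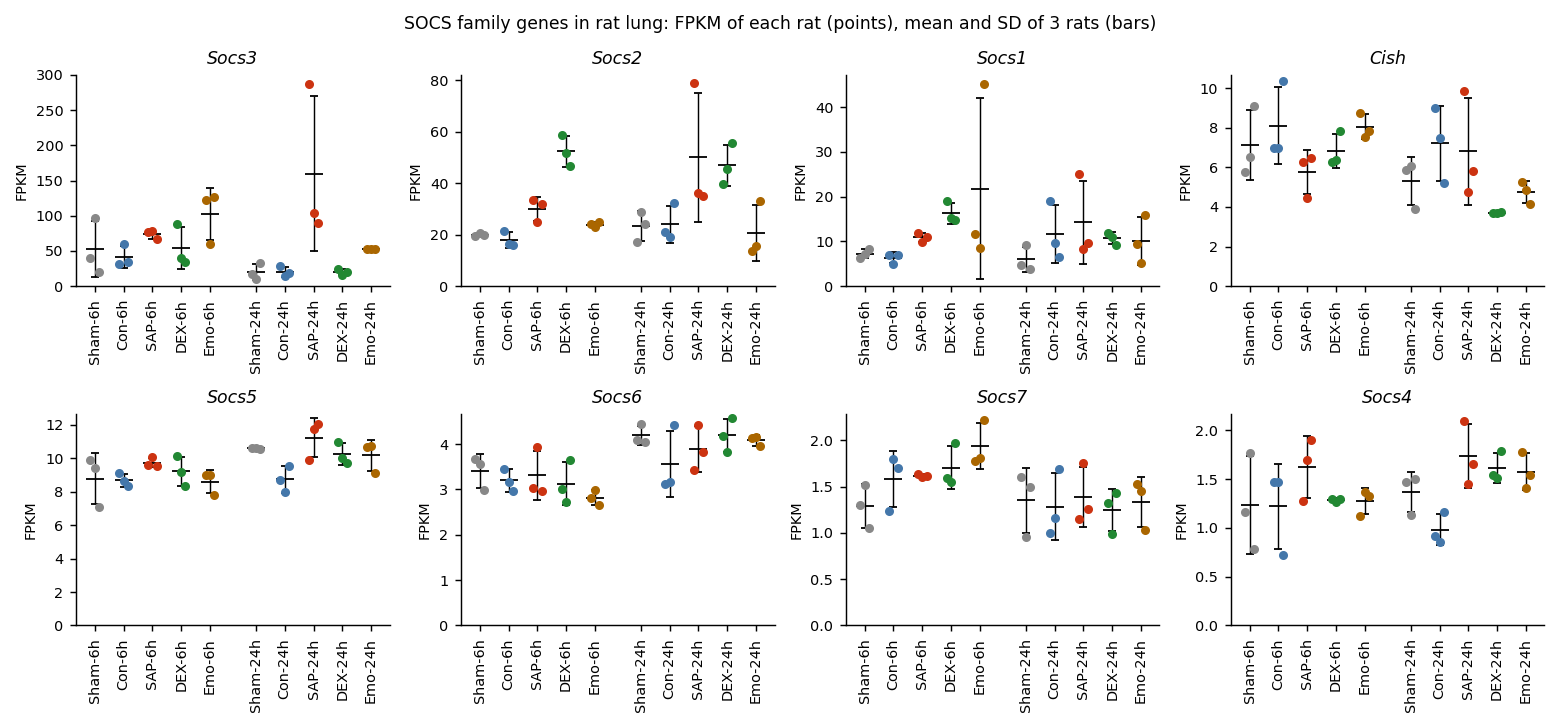
FPKM of each SOCS member (vertical axis, linear and starting at 0) in the 10 groups, with 1 point per rat and the mean and SD of 3 rats as black bars. Socs3 reached 89.58 to 286.63 FPKM in SAP-24h and was at most 33.07 FPKM in Sham-24h, Con-24h and DEX-24h. Over the 30 libraries the spans of Socs4 to Socs7 lay between 1.71-fold and 2.92-fold.

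Socs3 was far higher in SAP-24h than in either control group. The 3 SAP-24h rats had 286.63, 103.56 and 89.58 FPKM, the 3 Sham-24h rats 17.52, 9.79 and 33.07, and the 3 Con-24h rats 28.35, 14.07 and 19.25. Every SAP-24h value lay above every control value, as in 7.58% of all genes for Sham-24h and 9.87% for Con-24h. In edgeR's quasi-likelihood test Socs3 rose 8.91-fold against Sham-24h (log2 fold change 3.16, SE 0.56, adjusted p = 0.00167) and 8.71-fold against Con-24h (log2 fold change 3.12, adjusted p = 0.000884). Without SAP-24h rat 1 the log2 fold changes were 2.36 (adjusted p = 0.0112) and 2.31 (adjusted p = 0.00668), so both calls held. Fitted on the 6 libraries of SAP-24h and Sham-24h alone, the Socs3 difference was of the same size but had an adjusted p of 0.0925.

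Socs2 moved in the same direction over a smaller range. SAP-24h rats had 78.77, 36.31 and 34.98 FPKM, Sham-24h rats 17.27, 28.97 and 23.99, and Con-24h rats 21.12, 18.94 and 32.3. The groups did not overlap, but the gap between the lowest SAP-24h value and the highest Con-24h value was small. Socs2 rose 2.37-fold against Sham-24h (log2 fold change 1.24, SE 0.33, adjusted p = 0.017) and 2.31-fold against Con-24h (adjusted p = 0.0115). These calls depended most on SAP-24h rat 1, without which the log2 fold changes fell to 0.69 (adjusted p = 0.165) and 0.65 (adjusted p = 0.156). They were also lost at nearer sizes without Sham-24h rat 1 (1.08, adjusted p = 0.0749), Con-24h rat 1 (1.13, 0.0504) or Con-24h rat 2 (1.07, 0.0692). In fits of the compared groups alone they were lost at about the same size (1.26 and 1.21, adjusted p = 0.157 and 0.121).

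Socs3 and Socs2 were thus 2 of 8 members called up in SAP-24h vs Sham-24h, where 5% of all genes tested were called in either direction, and 2 of 8 in SAP-24h vs Con-24h, where 6.91% were. Socs1 had 24.99, 8.23 and 9.7 FPKM in SAP-24h and 4.75, 9.25 and 3.91 in Sham-24h, overlapping ranges, with a log2 difference of 1.42 (95% interval 0.30 to 2.53, adjusted p = 0.0852). DESeq2 also called Socs1 there (adjusted p = 0.0338), as did an unadjusted p, which 1329 of 15934 genes passed with a 2-fold change. The log2 difference was 0.67 without SAP-24h rat 1 (adjusted p = 0.487 in edgeR). Against Con-24h, Socs4 (log2 difference 0.96, adjusted p = 0.011) and Socs5 (0.48, adjusted p = 0.00332) passed the p threshold with less than a 2-fold change, Socs4 not without SAP-24h rat 1 (0.75, adjusted p = 0.0705). Cish had a log2 difference of 0.51 against Sham-24h (95% interval -0.02 to 1.05), and Socs6 one of 0.02 (-0.26 to 0.29).

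At 6 h no member was called in SAP vs Sham or SAP vs Con, by edgeR, by DESeq2 or at an unadjusted p under 0.05 with a 2-fold change, against 0.22% and 0.163% of all genes. Socs3 already stood at 76.54, 78.08 and 66.83 FPKM in SAP-6h, but the Sham-6h rats spread from 20.1 to 96.53 and covered that range. The Con-6h rats, at 31.01, 60.15 and 33.88, lay below every SAP-6h rat, with a log2 difference of 0.91 (adjusted p = 0.574), and 5.08% of all genes had every SAP-6h rat above every Con-6h rat. Socs2 had 33.67, 24.82 and 31.79 FPKM in SAP-6h and 19.37, 20.72 and 20.02 in Sham-6h, without overlap, as in 5.58% of all genes, and a log2 difference of 0.64 (95% interval -0.03 to 1.31, adjusted p = 0.414). The SAP effect at 24 h minus that at 6 h was 2.60 for Socs3 on the log2 scale (95% interval 1.08 to 4.12), with an adjusted p of 0.173. It was 1.79 without SAP-24h rat 1, 1.86 without Sham-6h rat 2 and 3.20 without Sham-24h rat 3. No member passed that test in edgeR, where 0.0314% of all genes did, or in DESeq2. At an unadjusted p with a 2-fold difference Socs3 was the 1 member, as were 999 of all 15934 genes.

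Under dexamethasone Socs3 and Socs2 stood at different levels relative to SAP. At 24 h the 3 DEX-24h rats had 24.34, 15.25 and 19.92 FPKM of Socs3, all below the lowest SAP-24h value and within the range of the Sham-24h rats. Socs3 was 8.81-fold lower than in SAP-24h (log2 fold change -3.14, SE 0.55, adjusted p = 0.00154), and the call held in all 11 alternatives, with log2 fold changes from -3.45 to -2.32. Against Sham-24h the log2 difference of Socs3 was 0.02 (95% interval -1.05 to 1.09), an interval that leaves room for a 2-fold difference in either direction.

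Socs2 did not follow. It had 39.71, 45.62 and 55.53 FPKM in DEX-24h, inside the range of SAP-24h and above every Sham-24h rat. Every DEX-24h rat lay above every Sham-24h rat in 10.18% of all genes. The log2 difference from SAP-24h was -0.21 (95% interval -0.87 to 0.46, adjusted p = 0.739), and it changed sign, to 0.36, without SAP-24h rat 1. Against Sham-24h Socs2 was 2.05-fold higher with an adjusted p of 0.0562, so no member was called in DEX-24h vs Sham-24h by edgeR, while 4.15% of genes were. DESeq2 called Socs2 there, as did an unadjusted p, which 1215 genes passed with a 2-fold change.

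Socs3 was therefore 1 of 8 members called in DEX-24h vs SAP-24h, against 3.73% of all genes. Cish, the founding STAT5-induced member, had 3.7, 3.67 and 3.73 FPKM in DEX-24h and 9.87, 4.76 and 5.82 in SAP-24h, with every treated value below every SAP-24h value, as in 8.65% of all genes. Its log2 fold change of -0.99 (adjusted p = 0.0214) lay just under 2-fold and was -0.55 without SAP-24h rat 1 (adjusted p = 0.202). Cish was called with RLE size factors (-1.003), by DESeq2 (-1.005) and without SAP-24h rat 2 (-1.21) or rat 3 (-1.12), while its adjusted p was 0.0708, 0.0686 and 0.0694 without DEX-24h rat 1, 2 or 3 and 0.166 in the fit of these groups alone. DEX-24h was the group with the lowest mean of Cish. Every DEX-24h rat lay below every rat of the next group, Emo-24h, as in 18.6% of all genes. Socs4 to Socs7 had log2 differences between -0.24 and 0.02.

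At 6 h, after 1 dose, Socs2 was already high under dexamethasone. DEX-6h rats had 58.85, 51.69 and 46.79 FPKM, above every Sham-6h, Con-6h, SAP-6h and Emo-6h rat. Of all genes, 10.58% had every DEX-6h rat above every Sham-6h rat and 8.755% above every SAP-6h rat. In 9.207% of all genes every Emo-6h rat lay below every DEX-6h rat. DEX-6h was not compared with Con-6h over all genes. Socs2 was 2.71-fold higher than in Sham-6h (log2 fold change 1.44, SE 0.33, adjusted p = 0.00829), a call that held in all 11 alternatives and was the 1 member called among the 3.97% of genes called in DEX-6h vs Sham-6h. Against SAP-6h the log2 difference was 0.80 (95% interval 0.13 to 1.47, adjusted p = 0.294), and no member was called in DEX-6h vs SAP-6h by edgeR, DESeq2 or an unadjusted p, where 0.515% of genes were. Socs1 was 2.31-fold higher in DEX-6h (19.01, 15.26 and 14.7 FPKM) than in Sham-6h (6.36, 7.29 and 8.24), without overlap, as were 10.6% of all genes, and with an adjusted p of 0.16. Socs3 in DEX-6h, at 88.22, 40.67 and 33.89 FPKM, overlapped both Sham-6h and SAP-6h.

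**Figure D2:**
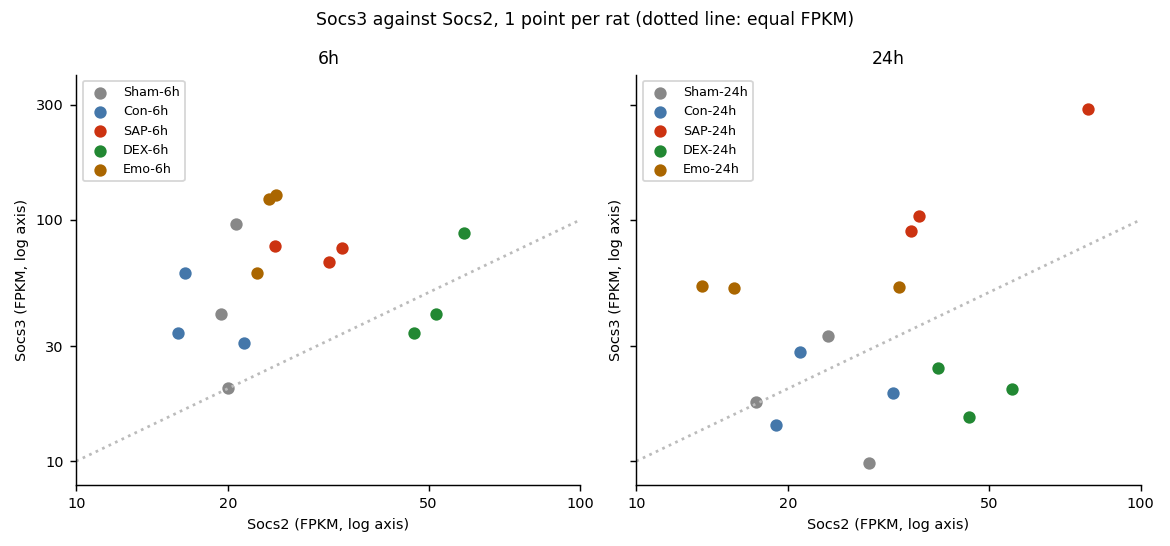
Socs3 FPKM (vertical, log axis) against Socs2 FPKM (horizontal, log axis) at 6 h and 24 h, 1 point per rat, with a dotted line where both are equal. At 24 h the DEX-24h rats lie below the line at high Socs2, and the SAP-24h and Emo-24h rats lie above it.

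The FPKM ratio of Socs3 to Socs2 was 2.56 to 3.64 in SAP-24h, 0.334 to 0.613 in DEX-24h, 1.60 to 3.93 in Emo-24h, 0.338 to 1.38 in Sham-24h and 0.596 to 1.34 in Con-24h. DEX-24h ratios lay below those of SAP-24h and Emo-24h without overlap, while Emo-24h overlapped SAP-24h. At 6 h the ratio was 0.724 to 1.50 in DEX-6h, 2.10 to 3.15 in SAP-6h and 2.64 to 5.08 in Emo-6h. The Sham-6h ratios of 1.00 to 4.66 overlapped those of all 3 groups, and the Con-6h ratios of 1.44 to 3.65 did so as well. Socs2 made up 47.5% ± 6.13 (SD, n = 3) of the summed family FPKM in DEX-24h and 20.7% ± 1.60 in SAP-24h, and Socs3 made up 20.1% ± 4.32 and 61.8% ± 6.35. These values describe the libraries and were not tested.

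Under emodin both genes were lower than in SAP at 24 h. Emo-24h rats had 53.07, 52.17 and 52.9 FPKM of Socs3, a narrow range below every SAP-24h rat and above every Sham-24h, Con-24h and DEX-24h rat. Every Emo-24h rat lay above every Sham-24h rat in 5.491% of all genes and above every DEX-24h rat in 18.6%. Socs3 was 3.47-fold lower than in SAP-24h (log2 fold change -1.79, SE 0.53, adjusted p = 0.0376). Socs2 had 13.5, 15.63 and 33.13 FPKM, below every SAP-24h rat and overlapping Sham-24h, and was 2.70-fold lower than in SAP-24h (log2 fold change -1.43, SE 0.33, adjusted p = 0.0127). These were 2 of 8 members called, against 3.19% of all genes, and 6.23% of genes had every Emo-24h rat below every SAP-24h rat. Cish had 5.25, 4.84 and 4.14 FPKM in Emo-24h, with a log2 difference of -0.70 from SAP-24h (95% interval -1.24 to -0.17, adjusted p = 0.0861), and Socs4 to Socs7 had log2 differences between -0.31 and -0.08.

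Both emodin calls were lost without some single libraries, but the size of the Socs3 difference moved mainly with SAP-24h rat 1. Without SAP-24h rat 1 the log2 fold changes were -0.996 for Socs3 (adjusted p = 0.242) and -0.88 for Socs2 (adjusted p = 0.0902). The Socs3 call was also lost without Emo-24h rat 1, 2 or 3 (adjusted p = 0.106, 0.119 and 0.0726), at about the same log2 fold change (-1.78, -1.80 and -1.86). The Socs2 call was lost without Emo-24h rat 1 or 2 (-1.18 and -1.28, adjusted p = 0.0691 and 0.0702), while without Emo-24h rat 3 Socs2 was at -2.02 (adjusted p = 0.00354). In fits of Emo-24h and SAP-24h alone neither was called, at log2 fold changes of -1.80 for Socs3 and -1.43 for Socs2 (adjusted p = 0.136 and 0.182). The SAP-24h libraries enter both drug comparisons and the comparison with Sham-24h, so a high value in SAP-24h raises all 3 differences at once.

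**Figure D3:**
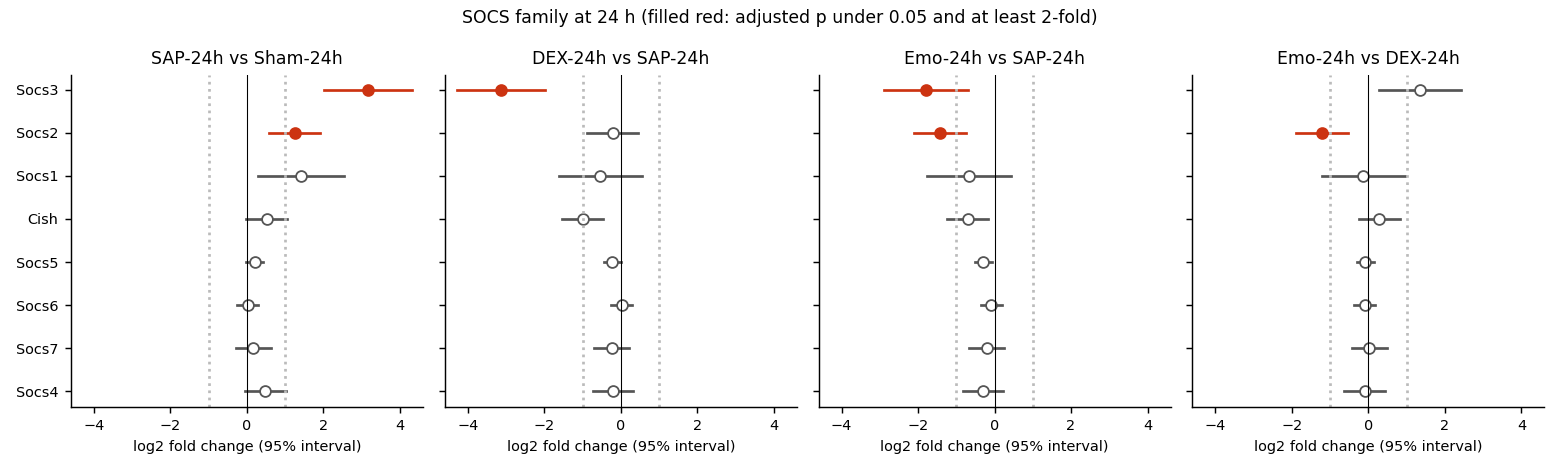
log2 fold change with its 95% interval (horizontal axis) for the 8 members in 4 comparisons at 24 h, from edgeR's model of all 30 libraries, with filled red points for members called at an adjusted p under 0.05 and at least 2-fold. Socs3 and Socs2 are called in SAP-24h vs Sham-24h and in Emo-24h vs SAP-24h, Socs3 alone in DEX-24h vs SAP-24h and Socs2 alone in Emo-24h vs DEX-24h.

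Set directly against each other, the 2 drugs differed in Socs2. In Emo-24h vs DEX-24h Socs2 was 2.33-fold lower (log2 fold change -1.22, SE 0.33, adjusted p = 0.021), the 1 member called against 5.06% of all genes. The call was lost without DEX-24h rat 2 or 3 (log2 fold change -1.23 and -1.12, adjusted p = 0.0523 and 0.0798) and without Emo-24h rat 1 or 2 (-0.97 and -1.06, adjusted p = 0.13 and 0.112). It was also lost, at about the same size, in the fit of these groups alone (-1.23, adjusted p = 0.0749). Socs3 was 2.54-fold higher in Emo-24h without overlap, as were 18.6% of all genes, with an adjusted p of 0.117 in the model of all libraries and of 0.00788 in the fit of these groups alone. At 6 h Socs2 had 24.12, 22.84 and 24.92 FPKM in Emo-6h, each below the lowest DEX-6h value, as in 9.207% of all genes. Its log2 difference from DEX-6h was -1.14 (95% interval -1.81 to -0.46, adjusted p = 0.0585). Thus edgeR called no member there against 1.41% of genes, while DESeq2, an unadjusted p (833 genes with a 2-fold change) and the fit of these groups alone each called Socs2.

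In Emo-6h vs SAP-6h no member was called by edgeR, DESeq2 or an unadjusted p, against 0.0251% of genes. Socs3 had 122.12, 60.28 and 126.46 FPKM in Emo-6h, overlapping SAP-6h. Socs1 was dominated by 1 rat, at 11.69, 8.53 and 45.12 FPKM, and its log2 difference from SAP-6h went from 0.99 to -0.13 without Emo-6h rat 3. Emo-6h vs Sham-6h had no member called by edgeR, against 0.477% of genes, and 1, Socs1, by DESeq2 and by an unadjusted p, which 533 genes passed with a 2-fold change. In Emo-24h vs Sham-24h edgeR called 0% of genes, with 207 genes at an unadjusted p under 0.05 and 2-fold. Among these was 1 member, Socs3, at 2.57-fold (unadjusted p = 0.0158 in edgeR's test, adjusted p = 1), and DESeq2 called no member.

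Between the time points Socs3 was called in DEX but not in SAP or Emo. Every SAP-24h rat lay above every SAP-6h rat (log2 difference 1.25, adjusted p = 0.138, and 0.44 without SAP-24h rat 1), as in 6.13% of all genes. Every DEX-24h rat lay below every DEX-6h rat (log2 fold change -1.45, adjusted p = 0.0444), as in 21.57% of all genes. Every Emo-24h rat lay below every Emo-6h rat (log2 difference -1.02, adjusted p = 0.13), as in 21.43%. In Sham the log2 difference was -1.35 (adjusted p = 0.146), with overlapping ranges. Every Con-24h rat lay below every Con-6h rat, a change that was not tested. In DEX-24h vs DEX-6h Socs3 was the 1 member called, against 7.14% of genes. The call was lost without any 1 of 5 of the 6 rats, DEX-6h rat 3 being the exception, and with no low-count filter (adjusted p = 0.0511). Its log2 fold change was -0.89 without DEX-6h rat 1, and between -1.71 and -1.30 when any other rat was left out. Cish (log2 change -0.86, adjusted p = 0.0177) and Socs6 (0.44, adjusted p = 0.0183) passed the p threshold there at under 2-fold. In Emo-24h vs Emo-6h the background was 9.41% and no member reached 2-fold with an adjusted p under 0.05 by edgeR or DESeq2, but Cish (-0.81, adjusted p = 0.0186), Socs6 (0.49, adjusted p = 0.00717) and Socs7 (-0.59, adjusted p = 0.0457) passed the p threshold. No member was called in Sham-24h vs Sham-6h (0.257% of genes) or SAP-24h vs SAP-6h (2.42%) by edgeR or DESeq2, and Socs3 was the 1 member at an unadjusted p with a 2-fold change in each, beside 520 and 1070 genes in all.

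Blood cell markers differed between the time points as well. In DEX-24h vs DEX-6h 6 of 8 T cell and 5 of 5 B cell markers fell, and in SAP-24h vs SAP-6h 3 of 8 T cell markers fell. Of all genes, 7.14% were called in DEX-24h vs DEX-6h, 2.42% in SAP-24h vs SAP-6h and 9.41% in Emo-24h vs Emo-6h. Of 4 red blood cell markers 3 fell in SAP-24h vs SAP-6h and 4 in Emo-24h vs Emo-6h, their summed FPKM going from 6248 to 9473 in SAP-6h to 1180 to 2167 in SAP-24h and from 2985 to 7347 in Emo-6h to 288 to 1343 in Emo-24h. The 8 neutrophil markers had a median log2 difference of 1.11 between the times in SAP, -0.22 in DEX and -0.03 in Emo. The marker counts between the time points were not repeated without SAP-24h rat 1. The part of these markers in the SOCS changes over time was not tested.

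Tests of the drug effect at 24 h minus that at 6 h gave Socs3 differences of -2.70 for dexamethasone (adjusted p = 0.121) and -2.27 for emodin (adjusted p = 0.0707) on the log2 scale. No member was called by edgeR in either, against 0.138% and 1.68% of genes. By DESeq2, Socs3 was called for dexamethasone, and Cish and Socs3 for emodin. At an unadjusted p with a 2-fold difference there were 3 and 4 members, beside 773 and 1399 of all 15934 genes. Without SAP-24h rat 1 the Socs3 differences were -1.89 (adjusted p = 0.268) and -1.47 (adjusted p = 0.205) in edgeR, and without Emo-6h rat 2 that for emodin was -2.58 and called (adjusted p = 0.037). For Cish the emodin difference was -1.18 in edgeR (adjusted p = 0.0634), and -0.75 without SAP-24h rat 1 (adjusted p = 0.175). Cish was called in edgeR without Emo-6h rat 2, SAP-24h rat 2 or SAP-6h rat 1 (adjusted p = 0.047, 0.0334 and 0.0481).

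The order of the groups by mean level differed between the genes. Socs3 ran from SAP-24h (159.9 FPKM) through Emo-6h (103.0), SAP-6h (73.8), DEX-6h (54.3), Emo-24h (52.7), Sham-6h (52.4) and Con-6h (41.7) to Con-24h (20.6), Sham-24h (20.1) and DEX-24h (19.8). Neighbours in this order had overlapping ranges except Con-6h and Con-24h. Socs2 ran from DEX-6h (52.4 FPKM), SAP-24h (50.02) and DEX-24h (47.0) to SAP-6h (30.1), with a gap in range between DEX-24h and SAP-6h, and the remaining groups from 24.1 to 17.9 overlapped their neighbours. For Socs1 no neighbouring groups were separated. The summed FPKM of the 8 members was 159 to 417 in SAP-24h, whereas Sham-24h rats had 63.2 to 82.5. It lay between 92.0 and 106.0 in DEX-24h and between 95.6 and 121.6 in Emo-24h.

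The rest of the JAK-STAT pathway was read from lists of its components, chosen with earlier results of these data known. Among the STAT3 targets, in SAP-24h vs Sham-24h 10 of 15 genes tested rose and 0 fell, with a median log2 difference of 1.55 against -0.03 over all genes, of which 5% were called. Bcl3, a nuclear IkB protein, rose 6.38-fold (adjusted p = 0.000938), Timp1, a protease inhibitor, 6.31-fold (adjusted p = 0.000938), the AP-1 subunit Junb 4.87-fold (adjusted p = 0.00143), and the transcription factor Cebpd 4.38-fold (adjusted p = 0.00355). The log2 differences of Bcl3 and Timp1 were 2.31 (adjusted p = 0.00525) and 2.03 (adjusted p = 0.00588) without SAP-24h rat 1. In DEX-24h vs SAP-24h 5 of 15 fell (Bcl3, Timp1, Junb, Pim1 and Tnfrsf1a; median -0.95), and in Emo-24h vs SAP-24h 8 of 15 fell, led by Timp1, Cebpd and Bcl3 (median -1.48). Without SAP-24h rat 1 these counts were 7, 1 and 4, and the medians were 1.18, -0.54 and -0.83. All genes called went from 796 to 402, from 594 to 462 and from 508 to 282.

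Of 6 STAT genes tested, Stat3 alone rose in SAP-24h vs Sham-24h: SAP-24h rats had 133.11, 66.91 and 64.12 FPKM against 37.3, 35.24 and 46.79 in Sham-24h (2.46-fold, adjusted p = 0.00203), and without SAP-24h rat 1 the log2 difference was 0.81, under 2-fold (adjusted p = 0.0124). Stat3 was 2.04-fold lower in DEX-24h than in SAP-24h (adjusted p = 0.00936), a call lost without SAP-24h rat 1 (log2 difference -0.52, adjusted p = 0.0962). Of 23 receptors, Csf2rb (4.83-fold), Osmr (2.99-fold), Il4r (2.64-fold) and Il6st, which encodes gp130 (2.07-fold), rose and Il7r fell in SAP-24h vs Sham-24h, 5 fell in DEX-24h vs SAP-24h (Csf2rb, Il10ra, Il2ra, Osmr and Csf2ra), and 1, Il4r, fell in Emo-24h vs SAP-24h. Without SAP-24h rat 1 these 5, 5 and 1 calls became 1, 3 and 0, and the shares of all genes called in the 3 comparisons were 5%, 3.73% and 3.19%. Il4r is also on the list of STAT3 targets, so its calls in SAP-24h vs Sham-24h and in Emo-24h vs SAP-24h count in both lists.

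Of 11 ligands tested, Il6 alone rose in SAP-24h vs Sham-24h, and its values of 11.04, 0.08 and 0.63 FPKM in SAP-24h against 0.11, 0.06 and 0.08 in Sham-24h show that SAP-24h rat 1 carried the change. Without that rat Il6 was not called (log2 difference 2.13, adjusted p = 0.328). Il6 and Osm fell in DEX-24h vs SAP-24h and Il6 in Emo-24h vs SAP-24h, and none of these 3 calls held without it. Of the 4 JAK kinases none was called in SAP-24h vs Sham-24h (median log2 difference 0.47, and 0.11 without SAP-24h rat 1), Jak2 rose 2.35-fold in SAP-24h vs Con-24h (adjusted p = 0.00108), and Jak3 was 2.77-fold lower in DEX-24h than in SAP-24h (adjusted p = 0.00246). Among 13 other inhibitors of the pathway Ptpn1, a phosphatase that acts on JAK2, rose 2.14-fold in SAP-24h vs Sham-24h (adjusted p = 0.00217) and was 2.14-fold lower in DEX-24h (adjusted p = 0.00224). Ptpn1 kept the first call without SAP-24h rat 1, and in DEX-24h vs SAP-24h it was just under 2-fold (log2 difference -0.997, adjusted p = 0.0108). None of 6 SOCS box partners was called in these 3 comparisons.

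**Figure D4:**
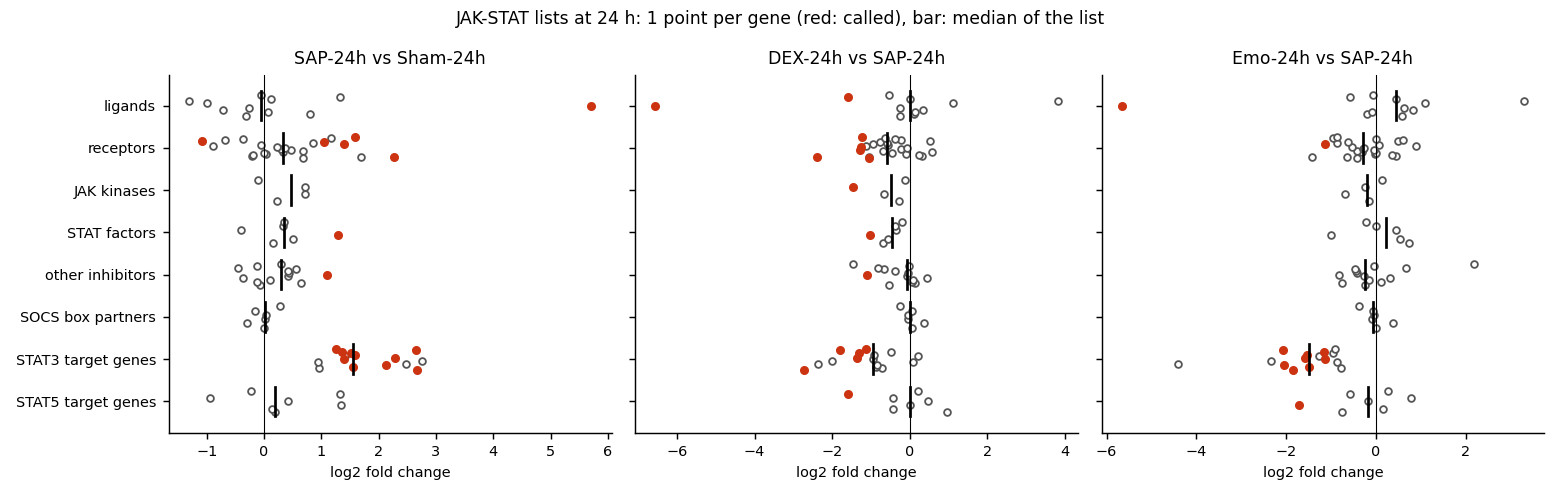
log2 fold change (horizontal axis) of each tested gene of 8 JAK-STAT lists at 24 h, with called genes in red and the median of each list as a black bar. The median of the STAT3 targets lies to the right of 0 in SAP-24h vs Sham-24h, with 10 of 15 genes called, and to the left of 0 in both drug comparisons.

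Of 7 STAT5 targets none was called in SAP-24h vs Sham-24h, while in DEX-6h vs Sham-6h Cdkn1a (4.09-fold) and Bcl2l1 (3.65-fold) rose and Ccnd1 fell, where 3.97% of all genes were called. In DEX-6h vs SAP-6h Bcl2l1 and Ccnd1 were called, 1 up and 1 down, where 0.515% of all genes were. Cdkn1a is also on the list of glucocorticoid targets that follows, so it counts in both lists. A list of glucocorticoid targets, a check of the drug, had 8 of 14 entries (some symbols have more than 1) higher in DEX-6h than in Sham-6h, Fkbp5 among them (4.03-fold, adjusted p = 0.00609), and 9 of 14 lower in Emo-24h than in DEX-24h, where 5.06% of all genes were called. Against SAP itself 1 of 14, Sgk1, was higher in DEX-6h, and in DEX-24h Sgk1 was higher and 2 entries, both Mt1, were lower, of which Sgk1 alone was called without SAP-24h rat 1.

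Markers of white blood cells also differed between the groups at 24 h. The summed FPKM of 8 neutrophil markers was 4503 to 16350 in SAP-24h, 204 to 9273 in Sham-24h, 107 to 961 in Con-24h, from 1026 up to 2984 in DEX-24h, and for Emo-24h it was 4288 to 6625. All 8 rose in SAP-24h vs Con-24h (6.91% of all genes called), 2 of 8 rose against Sham-24h, 2 of 8 fell in DEX-24h vs SAP-24h, and 1 of 8 in Emo-24h vs SAP-24h. The last 3 counts were 1, 1 and 0 without SAP-24h rat 1. The summed FPKM of 8 T cell markers was 20.2 to 23.9 in SAP-24h, 12.2 to 19.15 in DEX-24h, 25.9 to 92.4 in Emo-24h and 63.8 to 92.1 in Sham-24h, and 5 of 8 fell in SAP-24h vs Sham-24h, or 1 of 8 (Cd3d) without SAP-24h rat 1. T cell sums in SAP-24h and DEX-24h lay below those of every Emo-24h and Sham-24h rat. The summed FPKM of 6 macrophage markers was 185 to 300.3 in SAP-24h, while Sham-24h rats had 227 to 246, with 1 of 6, Marco, called up. The 5 B cell markers summed to 21.4 to 36.2 FPKM in SAP-24h, 21.9 to 51.8 in Sham-24h and 5.95 to 12.5 in DEX-24h, and 3 of 5 fell in DEX-24h vs SAP-24h (2 of 5 without SAP-24h rat 1). No neutrophil or T cell marker was at 0 in any library. The part of these cells in the SOCS changes was not tested.

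For each member the genes with the most similar profile over the 30 libraries were found by Pearson r of log2(FPKM + 1). Socs3 was most like Bcl3 (r = 0.960), Sbno2, a transcriptional co-regulator (0.960), and Csf2rb (0.950). Within groups, with group means removed, these correlations were 0.864, 0.916 and 0.868. Socs2 was most like the unnamed gene AABR07066529.3 (0.888), Arl4a (0.874) and the sphingosine kinase Sphk1 (0.868), and Socs1 like the early response genes Csrnp1 (0.851) and Atf3 (0.823) and like Upp1 (0.797). Cish followed Trmt112, Aprt and Txn2 (0.829 to 0.852). The remaining members had other neighbours: Dnaaf2, Prkx and Chd1 for Socs4, Plekhf2, Dync1li2 and Cdkn1b for Socs5, Slc12a2 and Pja2 for Socs6, and Mnt, Hmgxb3 and AABR07062344.2 for Socs7. The points share libraries, groups and depth, so these values are descriptions.

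Over the 30 libraries r was 0.199 between Socs2 and Socs3, 0.519 between Socs1 and Socs2, 0.404 between Socs1 and Socs3, -0.720 between Cish and Socs6, -0.623 between Cish and Socs5 and 0.662 between Socs5 and Socs6.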

How the data were processed

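Lung RNA of 30 rats was sequenced from directional polyA libraries. According to the methods, the authors clipped adaptors, used TopHat2 with at most 2 mismatches for alignment (reference rat_ensembl_v6) and kept uniquely mapped reads. The authors deposited read counts per gene and FPKM values. Counts were used for tests and FPKM for levels.

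Counts were filtered with filterByExpr (minimum count 10, minimum total 15), scaled by TMM and fitted in edgeR 4.0.16 (R 4.3.3) with 1 coefficient per group. The quasi-likelihood test was applied to 18 comparisons and 3 differences of effects, with Benjamini-Hochberg adjustment over 15934 genes. Calls required at least 2-fold and an adjusted p under 0.05. Intervals are 95%. The code was checked on simulated counts. Named genes were the 8 members, the called genes of fixed pathway and marker lists, and the 3 genes most like each member (Pearson r of log2(FPKM + 1), mean FPKM at least 1). Of these, 1 list and 1 similar gene are not reported here. The members and lists were chosen with earlier results of these data known. Alternatives were DESeq2 1.42.0, RLE size factors, no low-count filter, no fold limit, unadjusted p, a replicate block, a model of the compared groups alone and leaving out each rat, and for the profiles a pseudocount of 0.1. The list counts without SAP-24h rat 1 were added after seeing the data. Each library came from 1 rat.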

Additional observations from a re-analysis of the deposited data

Results flagged for a closer look

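Socs3 was picked out because every SAP rat was higher at 24 h than every SAP rat at 6 h, while every DEX rat was lower at 24 h than every DEX rat at 6 h. In edgeR's quasi-likelihood test the difference between these changes was -2.70 on the log2 scale (adjusted p = 0.121). The same held for emodin, where every Emo-24h rat lay below every Emo-6h rat, with a difference of -2.27 (adjusted p = 0.0707). Without SAP-24h rat 1 these differences were -1.89 and -1.47. Socs3 was also lower at 24 h than at 6 h in Sham, with a log2 difference of -1.35 (unadjusted p = 0.017 in edgeR, adjusted p = 0.146) and overlapping ranges. In Con, Socs3 was 31.01 to 60.15 FPKM at 6 h and 14.07 to 28.35 at 24 h, without overlap, a change that was not tested. Of all 15934 genes, 6.13% had every SAP-24h rat above every SAP-6h rat, 21.57% had every DEX-24h rat below every DEX-6h rat, and 21.43% had the same in Emo. Neither difference of effects passed the adjusted threshold in edgeR, and DESeq2 called both. The tests used the same libraries by which Socs3 was picked out, so their p-values are not independent of that choice.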

How the results depend on the processing

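The number of SOCS members called depended on the setting in several comparisons. In a model of the compared groups alone it was 0 in Emo-24h vs SAP-24h and in SAP-24h vs Sham-24h, 1 in SAP-24h vs Con-24h, Emo-6h vs DEX-6h, DEX-24h vs Sham-24h and Emo-24h vs Emo-6h, and 2 in DEX-6h vs Sham-6h. With no fold limit it was 4 in SAP-24h vs Con-24h, 2 in DEX-24h vs SAP-24h, and 3 in Emo-24h vs Emo-6h and in DEX-24h vs DEX-6h. RLE size factors gave 2 in DEX-24h vs SAP-24h, Cish and Socs3, and no low-count filter gave 0 in DEX-24h vs DEX-6h. DESeq2 and an unadjusted p each gave 3 in SAP-24h vs Sham-24h, with Socs1 added. DESeq2 gave 2 in DEX-24h vs SAP-24h, 1 in Emo-6h vs DEX-6h, DEX-24h vs Sham-24h and Emo-6h vs Sham-6h, and 1 and 2 for the dexamethasone and emodin effects at 24 h minus 6 h. An unadjusted p gave 1 in Emo-6h vs DEX-6h, DEX-24h vs Sham-24h, Emo-6h vs Sham-6h, Emo-24h vs Sham-24h, Sham-24h vs Sham-6h, SAP-24h vs SAP-6h and Emo-24h vs Emo-6h, 2 in Emo-24h vs DEX-24h and DEX-6h vs Sham-6h, and 1, 3 and 4 for the SAP, dexamethasone and emodin effects at 24 h minus 6 h. The causes were not tested.

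With a replicate block the count was 1 in Emo-24h vs SAP-24h and 0 in DEX-24h vs DEX-6h, Socs3 being lost in both (adjusted p = 0.0514 and 0.0527 in edgeR), with no other count changed. The numbers did not pair the rats: same-numbered libraries had a median correlation of -0.0086 (range -0.355 to 0.353), and 8 of 30 correlated best with their own number.

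Leaving out each rat in turn gave 1 to 2 members in SAP-24h vs Sham-24h, 1 to 3 in SAP-24h vs Con-24h, 1 to 2 in DEX-24h vs SAP-24h, 0 to 2 in Emo-24h vs SAP-24h and for the emodin effect at 24 h minus 6 h, and 0 to 1 in Emo-24h vs DEX-24h, DEX-24h vs Sham-24h, Emo-24h vs Emo-6h, Emo-6h vs Sham-6h and DEX-24h vs DEX-6h. The sign of some differences that were not called also turned. In DEX-24h vs SAP-24h the log2 difference ran from -0.83 to 0.23 for Socs1 and from -0.44 to 0.36 for Socs2, the positive values being those without SAP-24h replicate 1. For Socs1 in Emo-24h vs SAP-24h it ran from -1.22 to 0.077 (without SAP-24h replicate 1), in Emo-6h vs SAP-6h from -0.13 (without Emo-6h replicate 3) to 1.39, in Emo-6h vs DEX-6h from -0.71 (without Emo-6h replicate 3) to 0.81, and in Emo-24h vs DEX-24h from -0.70 to 0.17 (without Emo-24h replicate 2). The standard error of the log2 difference in SAP-24h vs Sham-24h was 0.13 for Socs6 and 0.56 for Socs3.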
